A study of Mus musculus with 2 samples.

Results

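Spp1, Trem2, Gpnmb, Apoe, Fabp5, Lgals3, Cd9 and Lpl, 8 of the 28692 genes counted, were followed through the monocytes, macrophages and Kupffer cells of mouse liver with and without MC38 tumor cells. They were taken by symbol as genes named for lipid-associated macrophages of tumors, and none of them was used to choose or group cells. Hepatic mononuclear cells had been sequenced cell by cell, with a molecular tag on each captured RNA (a UMI) that lets molecules be counted, and each group had 1 library. The MC38 library came from C57BL/6 mice given 500000 MC38 cells (a colon carcinoma line of the same strain) into the spleen, after which the spleen was taken out. The control library came from C57BL/6 mice given buffer into the spleen and recorded as without tumor. Liver cells were taken on day 14 and isolated on a Ficoll gradient, and 3 mice were pooled in each library. The protocol text of both groups also lists 3000000 MC38 cells under the skin, and the sources do not say whether that tumor was present in controls or whether their spleens were left in place. A fold between the libraries has no replicate check and no test, and every interval here covers counting error only.

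Macrophages that take up much lipid, first described in obese fat and since then in tumors, switch on a set of genes for sensing, binding and breaking down lipid. Trem2 is a surface receptor for lipids and lipoproteins that signals through the adaptor Tyrobp, and Apoe is a lipoprotein that it can bind. Spp1 encodes osteopontin, a secreted matrix protein that binds CD44 and integrins, and in the liver the resident Kupffer cells and incoming monocytes are different sources of macrophages.

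In the GENCODE M21 annotation of GRCm38 the genes lie on 7 chromosomes. Spp1 is at chr5:104435118-104441050 on the plus strand, Trem2 at chr17:48346401-48354147 (plus), Gpnmb at chr6:49036546-49070929 (plus), Apoe at chr7:19696109-19699188 (minus), Fabp5 at chr3:10012548-10016607 (plus), Lgals3 at chr14:47367751-47386160 (plus), Cd9 at chr6:125460266-125494791 (minus) and Lpl at chr8:68880491-68907448 (plus). Spp1 overlaps the model Gm42793 on its own strand, and Cd9 overlaps Gm28809 and Gm26728 on the other strand. Gm28809 held 336 UMIs over all barcodes against 18532 of Cd9, and the sources do not state whether counting used strand. RefSeq promoter sequences of GRCm38.p6 were matched for 6 of the 8 genes. The 250 bases before the start are shown for Spp1 (chr5:104434861-104435110, plus), Trem2 (chr17:48346151-48346400, plus) and Gpnmb (chr6:49036268-49036517, plus), the 3 genes with the largest folds over all gated cells. Capitals mark matches to the motifs searched.
Spp1: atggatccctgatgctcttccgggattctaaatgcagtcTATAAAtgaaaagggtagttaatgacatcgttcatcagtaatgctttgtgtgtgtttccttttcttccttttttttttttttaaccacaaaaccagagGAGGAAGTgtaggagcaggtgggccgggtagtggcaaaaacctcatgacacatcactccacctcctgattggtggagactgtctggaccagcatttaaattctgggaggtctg
Trem2: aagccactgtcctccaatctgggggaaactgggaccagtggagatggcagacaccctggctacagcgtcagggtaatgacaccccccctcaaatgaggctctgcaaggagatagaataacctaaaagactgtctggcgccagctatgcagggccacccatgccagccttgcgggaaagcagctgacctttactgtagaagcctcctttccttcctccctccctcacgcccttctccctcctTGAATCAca
Gpnmb: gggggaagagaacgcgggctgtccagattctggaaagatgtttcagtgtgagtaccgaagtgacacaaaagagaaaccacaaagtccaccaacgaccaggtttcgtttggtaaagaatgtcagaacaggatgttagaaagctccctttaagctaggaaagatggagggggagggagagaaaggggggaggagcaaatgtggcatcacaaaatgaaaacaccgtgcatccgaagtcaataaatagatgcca

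The motifs, searched on both strands, were TGANTCA (AP-1), CACGTG (an E-box), TATAAA (the core box bound by TBP) and GAGGAAGT (PU.1). Of all 32851 promoters of this length in the table, 6.75% held TGANTCA, 6.02% CACGTG, 12.4% TATAAA and 2.44% GAGGAAGT. Spp1 held TATAAA starting 211 bases and GAGGAAGT starting 113 bases before its start, and Trem2 held TGAATCA starting 9 bases before it. None of these motifs was matched in the windows of Gpnmb, Apoe, Lgals3 and Cd9 (the Lgals3 entry begins 6109 bases inside its GENCODE model), and no match overlapped another.

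After filtering, 11855 MC38 and 3439 control cells were kept, of which 3801 and 748 passed the gate for monocytes and macrophages. Of all barcodes, 33.3% in the MC38 library and 74.8% in the control library were over the mitochondrial limit of 10%, so the kept cells are a different share of each library. Gated cells were classed by marker UMIs. Macrophage-like cells numbered 757 in MC38 and 24 in control, with a median of 11524 and 5325 UMIs. There were 2839 and 552 classical monocyte-like cells (median 11394 and 9166 UMIs), 38 and 135 nonclassical monocyte-like cells (8233.5 and 8180 UMIs), and 62 and 30 Kupffer-like cells (2634 and 1189.5 UMIs), while 105 and 7 cells stayed unresolved. Barcodes shared by both libraries numbered 63, 8 of them among kept cells.

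The gate itself used the class markers, so their levels describe the classes and do not check them. Macrophage-like cells held the complement gene C1qb at 2381 CPM (UMIs of a gene per 1000000 UMIs of the class) in MC38 and 1933 CPM in control, against 78.1 and 11.4 CPM in classical monocyte-like cells. They also held the monocyte markers Ccr2, at 1225 and 1115 CPM, and Chil3, at 3969 and 630 CPM, and 107 of the MC38 cells (14.1%) lay within 5 UMIs per 10000 of the macrophage threshold, so the class is a range along a marker score. Kupffer-like cells held Clec4f at 2426 CPM in MC38 and 5884 CPM in control. Clusters made without the 8 genes filled the classes differently in the libraries. MC38 macrophage-like cells came mostly from the C1qb-led cluster (374 cells) and the Chil3-led cluster (139), and the 24 control cells from the C1qb-led (10), AI839979-led (6) and Clec4f-led (6) clusters. Most classical monocyte-like cells of MC38 lay in the F13a1-led (1163) and Chil3-led (1032) clusters, and 467 of the 552 control cells lay in the AI839979-led cluster.

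Over all gated cells the set was higher in MC38, apart from Lgals3, whose fold was small, and Lpl, which was lower. A gene was counted as higher or lower at a fold of 1.5 or more with a 95% interval that excludes no difference, among genes with at least 10 UMIs in both libraries together. By this rule 6 of the 8 genes were higher and 1 was lower, where 11.2% of 13029 genes were higher and 11.4% were lower. Without the Cd14-led cluster described below, Fabp5 was no longer among them, at a log2 fold of 0.51 (0.38 to 0.64). In cells without hepatocyte marker UMIs (125 MC38 and 174 control cells) 2 calls ended, Gpnmb (2.34, -1.0 to 7.96) and Fabp5 (0.50, 0.06 to 0.94). Over all gated cells the median log2 fold of the 8 genes was 1.38, beside -0.01 over all genes tested. In macrophage-like cells 5 of 8 were higher and 1 lower (3.2% of 10997 genes higher, 5.0% lower). In classical monocyte-like cells 5 of 8 were higher and 1 lower (10.0% of 12503 genes higher, 11.3% lower). In nonclassical monocyte-like cells 5 of the 6 measured were higher and 0 lower (5.97% of 7990 genes higher, 6.7% lower). In Kupffer-like cells 2 of the 7 measured were higher and 1 lower (3.44% of 5023 genes higher, 4.28% lower). Median log2 folds were 1.39 in macrophage-like cells (7 genes, 1.13 with Gpnmb at its bound), 1.60 in classical, 0.95 in nonclassical and 0.44 in Kupffer-like cells (6 genes, 0.29 with bounds), beside medians over all genes of -0.09, -0.02, -0.04 and 0.02. Genes that reached 10 UMIs only through their high library had to differ, so these counts describe the set and support nothing further.

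**Figure D1:**
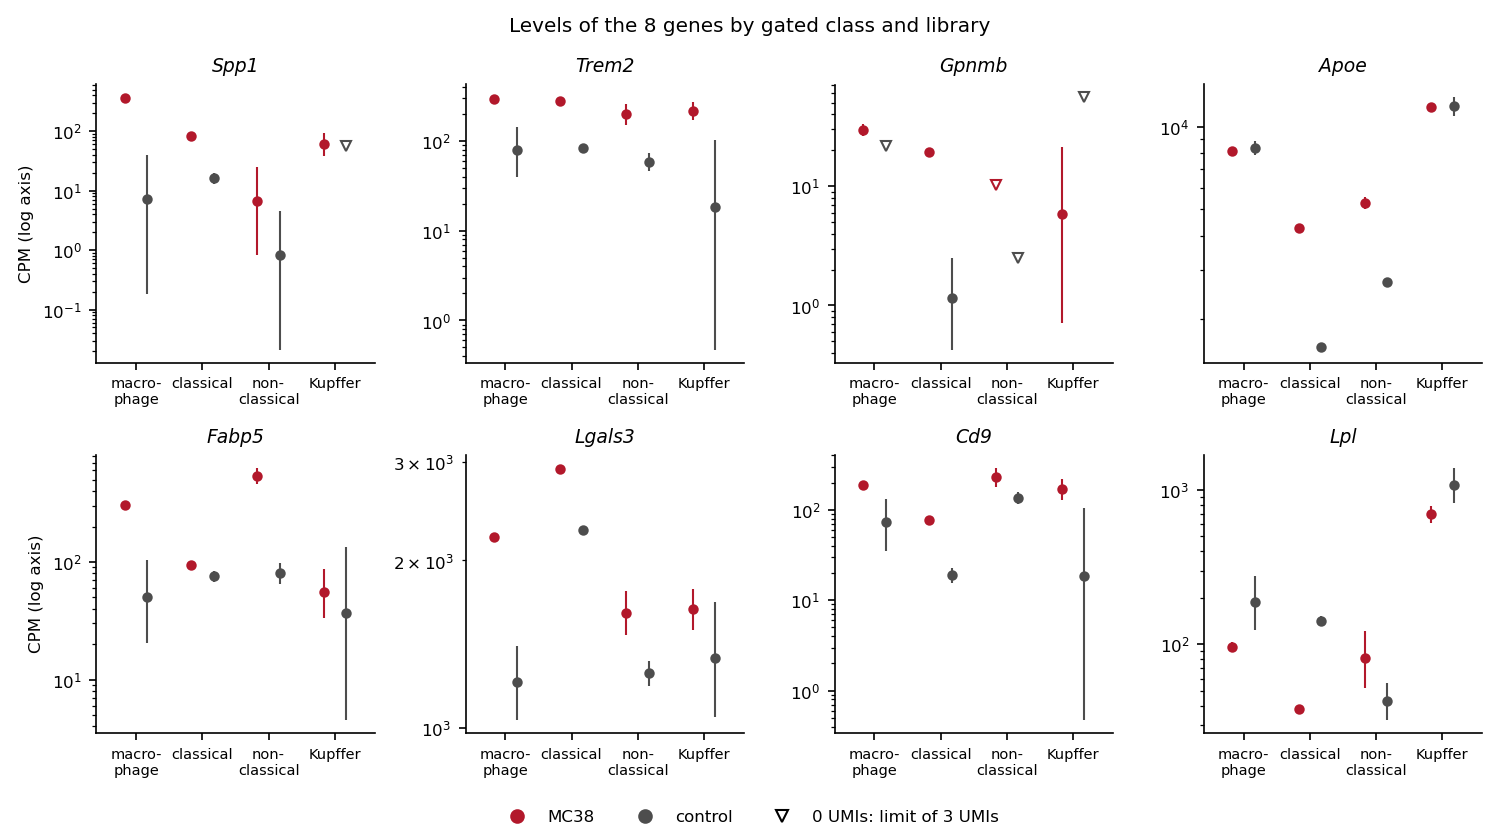
CPM of each gene on a log axis in the 4 gated classes, MC38 left of control in each pair, with bars for 95% Poisson intervals and open triangles at the level of 3 UMIs where a class held none. Spp1 and Trem2 were higher in MC38 in macrophage-like and classical monocyte-like cells, while Lpl was lower in MC38 in both and in Kupffer-like cells.

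Of the secreted proteins, Spp1 was highest in MC38 macrophage-like cells. It stood at 361 CPM (349 to 374) in MC38 macrophage-like cells, against 7.24 CPM, from 1 UMI, in control ones. That is a log2 fold of 5.64, with an interval of 3.16 to 10.95 set by that 1 UMI. In classical monocyte-like cells Spp1 was 82.9 CPM in MC38 and 16.2 CPM in control, a log2 fold of 2.36 (2.04 to 2.69). Kupffer-like cells held 61.8 CPM, from 21 UMIs, in MC38 and 0 UMIs in control, where 3 UMIs would be 55.7 CPM. In nonclassical monocyte-like cells there were 2 and 1 UMIs. Within MC38 the order was macrophage-like, then classical and Kupffer-like with overlapping intervals, then nonclassical. The 105 unresolved MC38 cells held more, 1254 CPM.

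Spp1 was carried by few cells. The 5% of MC38 macrophage-like cells with most Spp1, 38 cells, held 88.6% of its UMIs in the class, up to 493 UMIs in a cell, and over all gated MC38 cells 191 cells held 94.6%. The 86 Spp1 UMIs of all gated control cells lay in 10 cells, with 37 in one of them. With every cell thinned to 1000 UMIs, 8.51% of MC38 macrophage-like and 3.29% of MC38 classical monocyte-like cells had a Spp1 UMI, and 0.547% of control classical monocyte-like cells. B-cell-like cells had a Spp1 UMI in 0.437% of MC38 and 0.562% of control cells at the same depth (median depth before thinning 2783 and 3513.5 UMIs). Other MC38 types were higher, at 1.94% of T-cell-like, 2.14% of NK-cell-like or ILC1-like and 2.05% of neutrophil-like cells, so the B-cell-like share does not stand for a common background. MC38 T-cell-like cells held Spp1 at 70.7 CPM, and MC38 NK-cell-like or ILC1-like cells held 86.9 CPM, both close to the MC38 classical monocyte-like level of 82.9 CPM. The NK-cell-like or ILC1-like value came from 70 UMIs in 10 of 142 cells, with 48 UMIs in 1 cell. Control T-cell-like cells held 0.741 CPM. The part of free RNA in the classical Spp1 level was not tested.

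Apoe, an apolipoprotein that takes up cholesterol leaving macrophages, was higher in MC38 in both monocyte classes, and in macrophage-like cells its direction depended on how the class was drawn. Classical monocyte-like cells held 4276 CPM in MC38 and 1572 CPM in control (log2 fold 1.44, 1.41 to 1.48), and nonclassical ones 5274 and 2724 CPM (0.95, 0.87 to 1.04). The nonclassical call ended with classes taken from clusters (0.27, 0.06 to 0.48), and within the Ace-led cluster Apoe was 3423 CPM in 10 MC38 cells and 3036 CPM in 103 control cells (0.17, -0.05 to 0.39). Macrophage-like cells held 8177 CPM in MC38 and 8355 CPM in control, a log2 fold of -0.03 (-0.12 to 0.05), and Kupffer-like cells 11790 and 11840 CPM, a log2 fold of -0.01 (-0.13 to 0.12). Kupffer-like cells were thus the highest class in both libraries, and in MC38 no neighbours in the order Kupffer-like, macrophage-like, nonclassical and classical overlapped. Leaving out the Clec4f-led cluster, which held 6 of the 24 control macrophage-like cells, gave 8017 CPM in MC38 and 5669 CPM in control and a log2 fold of 0.50 (0.39 to 0.62), with no call. With the macrophage threshold at 10 per 10000 in place of 15 the fold was 0.90 (0.83 to 0.97), with it at 30 it was -1.27 (-1.37 to -1.17), and within the C1qb-led cluster it was 0.59 (0.46 to 0.71), from 7377 CPM in MC38 and 4917 CPM in control. Averaging over cells gave -0.84 in macrophage-like and 0.70 in Kupffer-like cells. Leaving out the Clec4f-led cluster also moved the macrophage-like folds of 2 other genes, to 3.02 (1.66 to 4.90) for Trem2 and 4.86 (2.38 to 10.16) for Fabp5.

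Liver parenchyma also makes Apoe. The 8 hepatocyte markers summed to 529 CPM in gated MC38 and 283 CPM in gated control cells, all 8 present in each. At the ratio of Apoe to these markers in hepatocyte-like cells, that sum would go with 25.6 and 13.9 CPM of Apoe, beside 5199 and 2004 CPM measured. In classical monocyte-like cells Trf made up most of the sum, 296.2 of 490.5 CPM in MC38 and 210.3 of 289.3 CPM in control. Alb held 63.1 and 44.3 CPM there. Whether this Trf came from hepatocytes was not tested, so the sum does not measure hepatocyte RNA. The part of Apoe from hepatocytes was not tested either. Apoe UMIs were also present in other cells: B-cell-like cells held 936 CPM in MC38 and 286 CPM in control. At 1000 UMIs per cell 46.9% and 18.5% of them had an Apoe UMI, against 83.2% and 51.5% of classical monocyte-like cells. The MC38 share was 25.8% in T-cell-like and 15.7% in NK-cell-like or ILC1-like cells, so these types did not share 1 level. Their control shares were 10.0% and 6.91%. T-cell-like cells held Apoe at 855 CPM in MC38 and 303 CPM in control, and NK-cell-like or ILC1-like cells at 505 and 93.7 CPM. Apoe was thus higher in MC38 in B-cell-like, T-cell-like and NK-cell-like or ILC1-like cells as well. Kept cells included 3908 hepatocyte-like cells in MC38 and 48 in control. The part of free RNA in the Apoe difference was not tested.

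Trem2, the lipid receptor, was counted as higher in MC38 in all 4 classes, and its classical fold kept its call under every alternative run. Macrophage-like cells held 298 CPM (287 to 309) in MC38 and 79.6 CPM (39.8 to 142) in control, a log2 fold of 1.90 (1.06 to 2.91). Classical monocyte-like cells held 284 and 83.9 CPM (1.76, 1.62 to 1.90), nonclassical ones 200 and 58.8 CPM (1.77, 1.25 to 2.29), and Kupffer-like cells 218 and 18.6 CPM, the last from 1 UMI (3.55, 1.03 to 8.87). Its MC38 level differed little between classes: macrophage-like and classical intervals overlapped, Kupffer-like cells (171 to 273 CPM) lay just under the classical ones (278 to 289 CPM), and Kupffer-like and nonclassical intervals overlapped. Trem2 was spread over cells, with 17.9% of its MC38 macrophage-like UMIs in the top 5% of cells. At 1000 UMIs 24.0% of MC38 and 7.48% of control classical monocyte-like cells had a Trem2 UMI. The share was 0.546% in MC38 B-cell-like, 1.11% in MC38 T-cell-like and 3.69% in MC38 neutrophil-like cells. In macrophage-like cells the shares were 24.5% (21.4 to 27.7%) in MC38 and 21.1% (6.05 to 45.6%) of 19 cells in control. The macrophage-like call ended at this depth (log2 fold 0.48, -0.89 to 2.37) and with the threshold at 30 per 10000 (0.44, -0.54 to 1.65). The nonclassical call ended with classes from clusters (0.73, -0.94 to 2.04) and at 1000 UMIs (1.57, -0.76 to 3.79), and the Kupffer-like call at 1000 UMIs (2.38, -0.33 to 7.78).

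Of the other membrane proteins, Gpnmb, a lysosomal and surface glycoprotein, was low throughout. MC38 macrophage-like cells held 29.7 CPM, from 270 UMIs, and the control cells held 0 UMIs, so that the level was at least 1.37-fold higher against a floor of 3 UMIs in the control class, which is under the limit for a call. Classical monocyte-like cells held 19.2 CPM in MC38 and 1.16 CPM, from 6 UMIs, in control (log2 fold 4.05, 2.92 to 5.50). That call ended in cells without hepatocyte marker UMIs (2.15, -1.19 to 7.77, 93 and 113 cells). No Gpnmb UMI was found in nonclassical monocyte-like cells of either library, and 2 UMIs in MC38 and 0 in control were found in Kupffer-like cells.

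Cd9, a tetraspanin of the cell surface, was counted as higher in MC38 in all 4 classes. It held 190 and 72.4 CPM in MC38 and control macrophage-like cells (log2 fold 1.39, 0.51 to 2.45), 76.5 and 18.9 CPM in classical monocyte-like cells (2.02, 1.73 to 2.32), 231 and 135 CPM in nonclassical ones (0.77, 0.34 to 1.19), and 171 and 18.6 CPM, the last from 1 UMI, in Kupffer-like cells (3.20, 0.66 to 8.53). In MC38 the nonclassical, macrophage-like and Kupffer-like levels overlapped, and the classical level was the lowest. The macrophage fold rests on 2 clusters: without the Cd14-led and Saa3-led clusters the MC38 level was 99.6 CPM and the log2 fold 0.46 (-0.43 to 1.53), no longer called. That call also ended as a mean over cells (0.41, -0.47 to 1.47) and with the threshold at 30 per 10000 (0.23, -0.90 to 1.68), and at 1000 UMIs the classical call alone was left, at 3.34.

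Fabp5 binds fatty acids in the cytosol, and Lgals3 encodes galectin-3, which binds sugars on glycoproteins and damaged lysosomes. Fabp5 was 303 CPM in MC38 and 50.7 CPM, from 7 UMIs, in control macrophage-like cells (log2 fold 2.58, 1.53 to 3.89). Nonclassical monocyte-like cells held 543 and 80.3 CPM (2.76, 2.38 to 3.14). In classical monocyte-like cells, at 93.6 and 75.4 CPM, the log2 fold of 0.31 (0.16 to 0.47) stayed under the limit, and in Kupffer-like cells, at 55.9 and 37.1 CPM, the interval of -1.46 to 3.74 spanned no difference. With a mitochondrial limit of 30% (199 MC38 and 231 control cells) the Kupffer-like fold was called, at 3.13 (1.71 to 5.04), and within the Clec4f-led cluster it was 2.36 (1.37 to 3.58). The macrophage-like call ended at 1000 UMIs (1.65, -0.22 to 4.71). Outside the gate, hepatocyte-like cells held Fabp5 at 356 CPM in 3908 MC38 cells and 230 CPM in 48 control cells. T-cell-like cells held 169 CPM in MC38 and 44.7 CPM in control, and basophil-like or mast-cell-like cells 315 and 336 CPM. The part of hepatocyte or free RNA in the Fabp5 folds was not tested. The MC38 order of Fabp5 was nonclassical, macrophage-like, classical and Kupffer-like, the last overlapping no other class. Of the 38 MC38 nonclassical cells 20 lay in the C1qb-led cluster, while 102 of the 135 control cells lay in the Ace-led one. Within the Ace-led cluster Fabp5 was 717 CPM in 10 MC38 cells and 73.8 CPM in 103 control cells. Of the 5 genes called higher in the nonclassical class, Fabp5 (3.28, 2.68 to 3.86) and Cd9 (0.89, 0.04 to 1.64) were called within that cluster, and Apoe, Trem2 and Lpl were not. Lgals3 was abundant in every class, at 2205 and 1209 CPM in MC38 and control macrophage-like cells (log2 fold 0.87, 0.65 to 1.10), and its folds of 0.37 in classical, 0.36 in nonclassical and 0.29 in Kupffer-like cells were under the limit. The macrophage-like Lgals3 call ended with the threshold at 10 per 10000 (0.43, 0.32 to 0.54) and in cells without hepatocyte marker UMIs (0.44, 0.02 to 0.87, 23 and 8 cells). Within the C1qb-led cluster the Lgals3 fold was 0.18 (-0.03 to 0.38), and within the Clec4f-led cluster 0.98 (0.69 to 1.28). The Kupffer-like Lgals3 fold was called at the mitochondrial limit of 30% (0.76, 0.56 to 0.97) and with classes from clusters (1.36, 1.10 to 1.64). The nonclassical one was called at 1000 UMIs (0.66, 0.22 to 1.09).

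Lpl, the lipase that hydrolyses triglycerides of lipoproteins, went the other way in 3 classes. Kupffer-like cells had the highest level, 697 CPM in MC38 and 1077 CPM in control (log2 fold -0.63, -1.05 to -0.19). Macrophage-like cells held 96.3 CPM in MC38 and 188 CPM, from 26 UMIs, in control (-0.97, -1.53 to -0.34), and classical monocyte-like cells 37.8 and 142 CPM (-1.91, -2.04 to -1.77). In nonclassical monocyte-like cells it was higher, at 81.5 CPM, from 24 UMIs, in MC38 and 43.0 CPM in control (0.92, 0.16 to 1.64). That call ended at the mitochondrial limit of 30% (0.17, -0.51 to 0.80), with classes from clusters (1.10, -1.27 to 2.80) and at 1000 UMIs (1.22, -0.74 to 3.01). At 1000 UMIs 2.69% of MC38 and 10.0% of control classical monocyte-like cells had a Lpl UMI. The share was 0.218% in MC38 B-cell-like, 0.556% in MC38 T-cell-like and 1.23% in MC38 neutrophil-like cells. The classical fold includes the F13a1-led cluster, 1163 MC38 cells with Lpl at 13.3 CPM over the cluster, and without it the log2 fold was -1.35 (-1.48 to -1.21). The Kupffer-like call ended without the 1 cell of the Saa3-led cluster, at a log2 fold of -0.54 (-0.96 to -0.10), and at the 30% limit it was -0.07 (-0.25 to 0.11). The macrophage-like call ended as a mean over cells (-0.53, -1.09 to 0.09), at 1000 UMIs (-0.87, -2.48 to 1.45) and with the threshold at 30 per 10000 (0.06, -1.30 to 1.94).

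**Figure D2:**
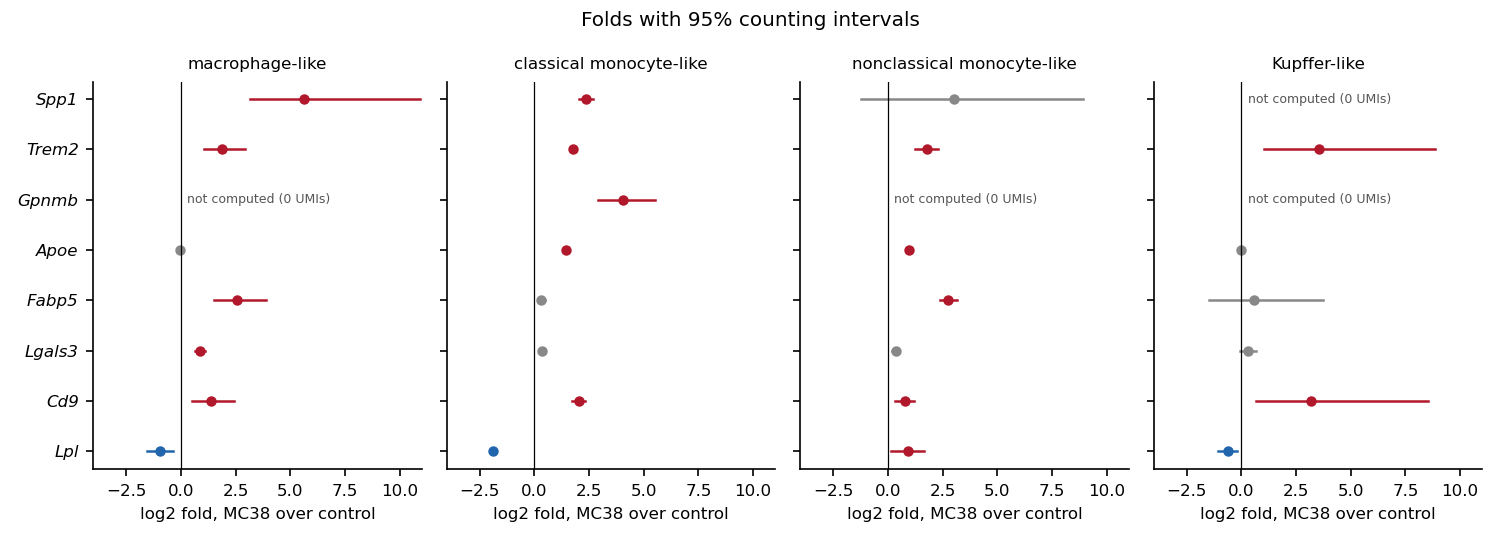
Log2 fold of MC38 over control for each gene in the 4 classes, with 95% counting intervals as lines. Red marks genes counted as higher, blue as lower and grey as neither. Lpl was the only blue gene, at -0.97, -1.91 and -0.63 in macrophage-like, classical and Kupffer-like cells.

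Markers of other cells moved with the library. The 7 neutrophil markers summed to 3688 CPM in MC38 and 144 CPM in control classical monocyte-like cells, with 7 and 5 of them present, and to 401 and 94.1 CPM in macrophage-like cells, with 7 and 2 present. The 6 epithelial markers summed to 20.3 and 4.22 CPM over all gated cells, with Krt19 and Cldn4 at 0 in both libraries. Without the F13a1-led cluster, whose gated cells were led by S100a9 and S100a8, the log2 folds in classical monocyte-like cells were 3.05 for Spp1, 1.78 for Trem2, 4.17 for Gpnmb, 1.76 for Apoe and 2.75 for Cd9, and Fabp5 was then also counted as higher at 0.81 (0.66 to 0.98). That cluster was also led by the classical monocyte markers F13a1, Vcan and Chil3 among all clusters, and held Ly6c2 at 1775 CPM. Whether its S100a8, at 5449 CPM, came from neutrophils was not tested, so the marker sum does not measure neutrophil RNA. The part of neutrophil RNA in the classical folds was not tested.

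Within the MC38 library 2 of the clusters carried most Spp1. The Cd14-led cluster, whose other leading genes were Mmp12, Thbs1, Hilpda and Clec4n, held 315 gated cells and 54.1% of all Spp1 UMIs of gated MC38 cells, with 41.2% of Gpnmb and 33.1% of Cd9 UMIs. Spp1 stood at 1057 CPM there, in 50.8% of its cells. The Saa3-led cluster, led also by Prg4 and Alox15, held 52 gated cells and 18.6% of Spp1 UMIs, at 1397 CPM. The C1qb-led cluster held only 88.1 CPM of Spp1 in 692 cells, with 10.0% of its UMIs. Trem2 showed no such order, at 292 CPM in the Cd14-led, 144 in the Saa3-led and 267 in the C1qb-led cluster. Apoe and Lpl were highest in the Clec4f-led cluster, at 10700 and 352 CPM. With the Cd14-led and Saa3-led clusters left out, Spp1 stood at 112 CPM in 628 MC38 macrophage-like cells (log2 fold 3.95, 1.47 to 9.26) and 34.2 CPM in classical monocyte-like cells (1.08, 0.76 to 1.42).

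**Figure D3:**
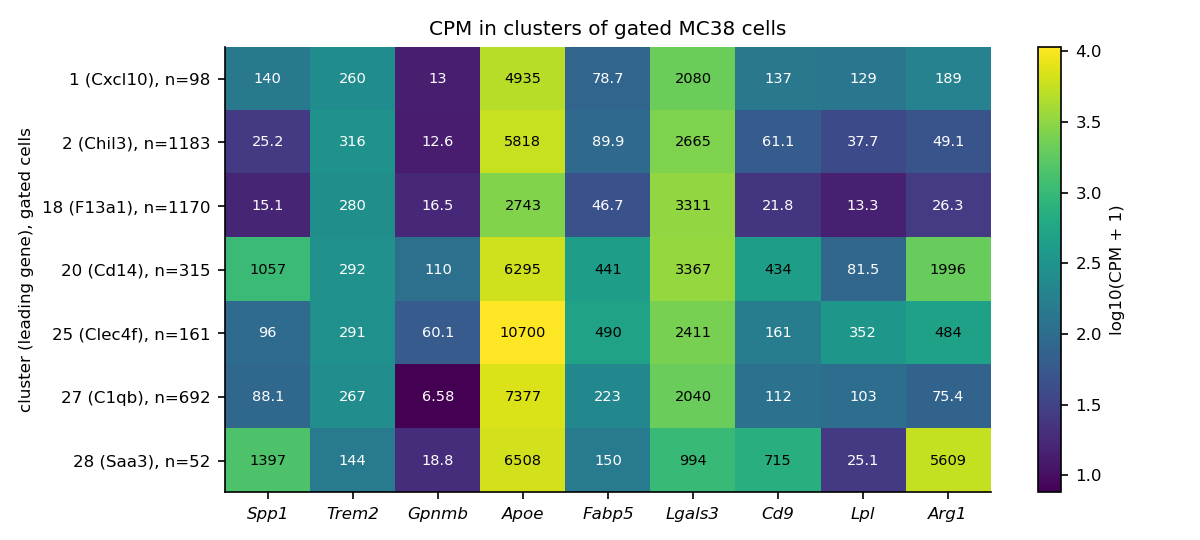
CPM of the 8 genes and Arg1 in clusters with at least 50 gated MC38 cells, printed in each cell and coloured by log10(CPM + 1); rows give the cluster number, its leading gene and its gated cells. Spp1, Cd9 and Arg1 were high in the Cd14-led and Saa3-led rows, at 1057 and 1397 CPM for Spp1, while Trem2 was 144 to 316 CPM in all rows.

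Per-cell co-expression in the MC38 library was weak for the set as a whole and stronger for a subset. Each of 711 macrophage-like cells was thinned to 2000 UMIs (46 shallower cells were left out), and Pearson correlations of log(1 + UMIs) were taken over cells of 1 library as a description. Over the 28 pairs the median r was 0.09, from -0.04 to 0.37, with 26 pairs above 0 and 4 above 0.2. The highest pairs were Spp1 with Cd9 (0.37), Gpnmb with Fabp5 (0.34), Spp1 with Fabp5 (0.23) and Gpnmb with Lgals3 (0.20). Spp1 had r of -0.04 with Trem2 and -0.02 with Apoe. In sparse counts most of these values are small, and no relation is read from them. Against the mean of the other 7 genes, Fabp5 had the highest r (0.36), then Gpnmb (0.33), Spp1 (0.27) and Cd9 (0.27), and Trem2 the lowest (0.09).

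**Figure D4:**
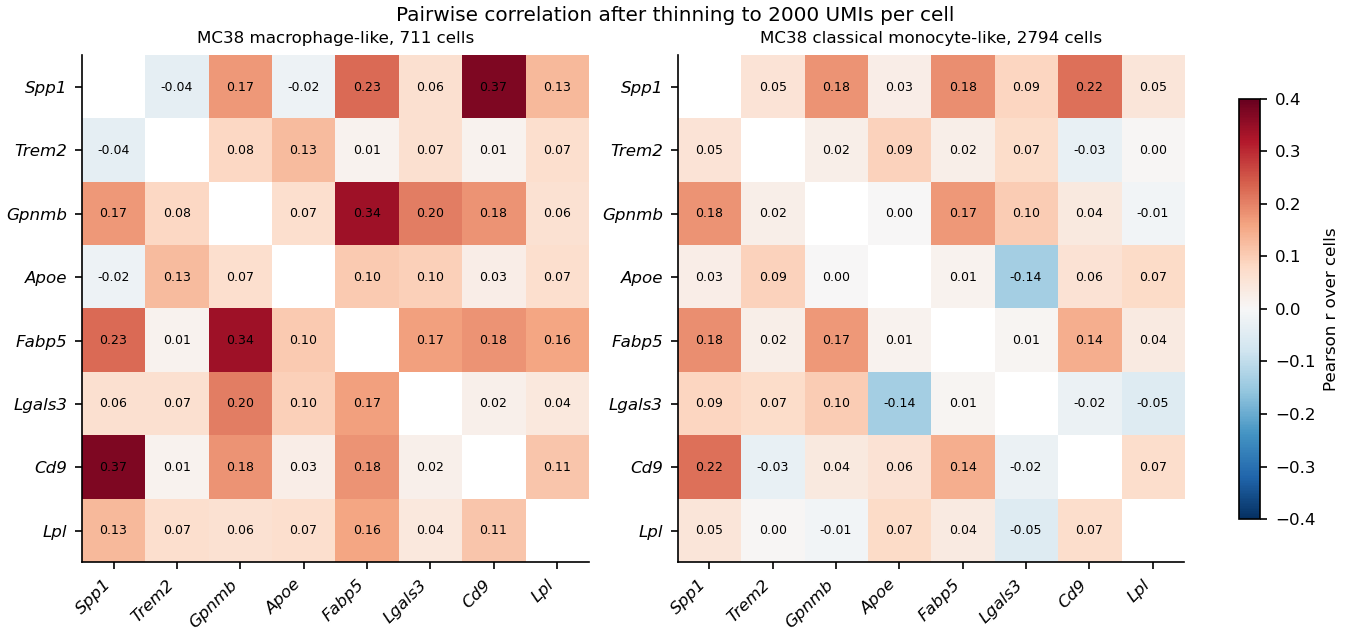
Pearson r over cells for each pair of genes in MC38 macrophage-like cells (left, 711 cells) and MC38 classical monocyte-like cells (right, 2794 cells), each cell thinned to 2000 UMIs. Spp1 with Cd9 was the highest pair in both, at 0.37 and 0.22, while Trem2 with Spp1 was -0.04 and 0.05.

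Shares of cells restate some of these pairs from the same thinned counts and are no separate observation. Of the 65 macrophage-like cells with a Spp1 UMI, 50.8% (38.1 to 63.4%) had a Cd9 UMI, against 17.5% (14.6 to 20.7%) of the 646 without. Gpnmb was found in 15.4% (7.63 to 26.5%) of the cells with Spp1 and 2.48% (1.42 to 3.99%) of those without. Fabp5 was found in 33.8% (22.6 to 46.7%) and 19.4% (16.4 to 22.6%), with intervals that just overlapped. Trem2 differed by less than its counting interval, at 46.2% (33.7 to 59.0%) with Spp1 and 43.0% (39.2 to 47.0%) without. Of 26 cells with Gpnmb, 57.7% (36.9 to 76.7%) had a Fabp5 UMI, against 19.3% (16.4 to 22.4%) of the 685 without.

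Few cells showed UMIs of many of the genes at this depth. Thinning removes UMIs: Trem2 was found in 83.0%, Cd9 in 49.9% and Fabp5 in 44.8% of MC38 macrophage-like cells before it, so a missing UMI does not show a missing gene. At 2000 UMIs the median MC38 macrophage-like cell had a UMI of 3 of the 8 genes. At least 4 genes were found in 26.9% (23.6 to 30.3%), at least 6 in 2.53% (18 cells), and all 8 in 1 cell. Classical monocyte-like cells had at least 4 genes in 13.5% (12.2 to 14.8%) of 2794 MC38 cells and 4.45% (2.87 to 6.55%) of 539 control cells. The median r over pairs in classical monocyte-like cells was 0.04 in MC38 and -0.01 in control. Too few control macrophage-like cells were present for the same measure.

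**Figure D5:**
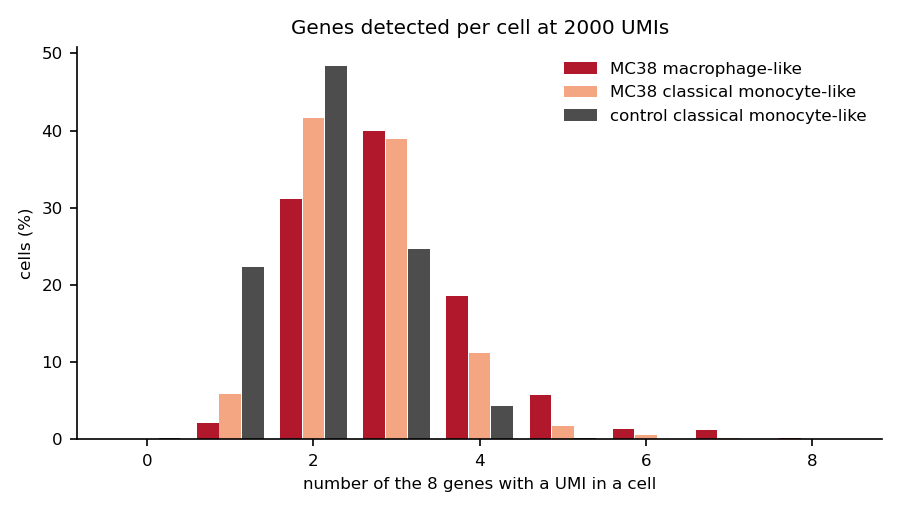
Share of cells (%) by the number of the 8 genes with a UMI after thinning to 2000 UMIs, for MC38 macrophage-like, MC38 classical monocyte-like and control classical monocyte-like cells. Bars for MC38 reach further to the right, with 26.9%, 13.5% and 4.45% of cells at 4 or more genes.

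Among 2549 other genes detected in at least 10% of the 711 cells, those most like the mean of the 8 genes were Cd63 (r 0.39), a tetraspanin of late endosomes, the ferritin chains Fth1 (0.38) and Ftl1 (0.37), Arg1 (0.30), the arginine-degrading enzyme of tumor macrophages, and Ctsd (0.29), a lysosomal protease. Basp1, Acp5, Ctsl, Ctsb and Bcl2a1b followed, at 0.27 to 0.23. A high r with the mean did not hold for each of the 8. Cd63 had 0.385 with Fabp5 and 0.291 with Spp1, but 0.003 with Trem2, 0.079 with Apoe and 0.057 with Lgals3. Fth1 had 0.318 with Spp1 and -0.018 with Trem2. Fth1 and Ftl1 have near-identical copies in the genome, so their counts are uncertain. Arg1 stood at 851 CPM in MC38 macrophage-like cells with 0 UMIs in control ones. It is also a hepatocyte gene, at 2963 CPM in MC38 hepatocyte-like cells, and MC38 B-cell-like cells held 69.3 CPM. Of the 153 macrophage-like cells with an Arg1 UMI, 30.1% (22.9 to 38.0%) had Spp1, against 3.41% (2.06 to 5.27%) of the 558 without. For Cd9 the shares were 39.9% (32.0 to 48.1%) and 15.2% (12.3 to 18.5%), and for Trem2 41.8% (33.9 to 50.1%) and 43.7% (39.6 to 48.0%).

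Genes around the set were described by lists over all gated cells, of which macrophage-like cells were 19.9% in MC38 and 3.21% in control, with log2 folds in parentheses, beside a median log2 fold of -0.01 over all genes and the shares given above (11.2% higher, 11.4% lower). Of 10 genes of Trem2 signaling 1 was higher, Bin1 (0.76), and none lower, with a median of -0.10. Tyrobp, the adaptor, had -0.13, Vav1 0.27, Syk -0.38 and Pik3cd -0.35. Of 7 osteopontin receptors the integrin chain Itgb5 was higher (1.80) and Itga4 (-1.04) and Itgb3 (-1.58) were lower, with a median of -0.42. In macrophage-like cells 0 of the 7 were higher and 2, Itga4 and Itga9, were lower, with a median of -0.07. Of 7 genes of lipid uptake measured, 3 were higher, among them the scavenger receptors Olr1 (1.88) and Msr1 (0.63), and 2 were lower, among them Cd36 (-3.53), a fatty acid transporter. The median was 0.39. In macrophage-like cells 2 of 7, Msr1 and Lrp1, were higher and 0 lower, with a median of 0.56. Of 16 genes of lipid storage, hydrolysis and efflux 3 were higher, among them the lipid droplet protein Plin2 (1.62) and Ppard (0.71), and 2 lower, Pparg (-2.35) and Fabp4 (-1.68), with a median of 0.14. In macrophage-like cells 2 of the 16, Plin2 and Pnpla2, were higher and 0 lower, with a median of 0.27. Fabp4, lower over all gated cells, was counted as higher within classical monocyte-like cells at 1.11 (0.30 to 2.05).

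Of 5 partners of lipoprotein lipase 2 were higher, among them the inhibitor Angptl4, with 281 UMIs in MC38 and 1 in control (5.41, 2.92 to 10.72), and the median was 1.73. Lmf1, needed for folding of the enzyme, had -0.42 and Gpihbp1 -0.20. In macrophage-like cells 0 of the 3 partners measured were higher or lower, with a median of 1.26, or -1.5 with bounds. Of 19 lysosomal genes 6 were higher and none lower, with a median of 0.29, while in macrophage-like cells 3 of 18 were higher and 1 lower, with a median of -0.02. The proteases Ctsl (2.70) and Ctsd (1.90) and Cd63 (2.53) were among the 6, while Ctsb had -0.45 and Cd68 -0.08. Of 7 tetraspanins 4 were higher, Cd63 and Tspan4 (2.39) most, and none lower (median 0.61; Cd53 -0.41, Cd82 -0.46). In macrophage-like cells alone 1 tetraspanin, Cd63, was higher and 1, Cd81, lower, with a median of -0.26 beside -0.09 over all genes. Of 4 galectin genes Lgals1 (0.78) was higher and Lgals3bp (-1.18) lower, with a median of 0.10; Lgals8 had 0.26 and Lgals9 -0.07. Of 20 other published lipid-associated macrophage genes, 14 of which also stand in the lists above, 8 were higher and 2, Cd36 and Fabp4, lower, with a median of 0.15. In macrophage-like cells 7 of the 20 were higher and 0 lower, with a median of 0.26. Of 12 scavenger and matrix genes of tumor macrophages 11 were higher and 1 lower, with a median of 2.04. In macrophage-like cells alone 7 of the 12 were higher and 1 lower, with a median of 1.39. In classical monocyte-like cells 7 of the 11 measured were higher and 1 lower, with a median of 2.13. Over all gated cells Arg1 (7.27, 349 CPM in MC38 and 2.26 CPM in control) and C3ar1 (4.35), a complement receptor, stood at the top. Ccl8 had 53 UMIs in MC38 and 2 in control (interval 0.08 to 5.09), and Il1rn (-0.89), the interleukin-1 receptor antagonist, was lower.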

How the data were processed

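The deposited matrices hold UMI counts per gene and cell barcode, made by the authors with Cell Ranger 2.2 and STAR on GRCm38.p6, per the submitters' processing notes, while the matrix headers name software 3.0.2. The notes also list bcl2fastq, Seurat 2.3.4 and R 3.6.0. The labels give a 5' kit, while the barcodes resemble those of a 3' kit, and which end of the RNA was read is not settled here. The MC38 and control libraries held 19822 and 14258 barcodes with 114421875 and 91617457 UMIs, a median of 3141.5 and 5470.5 per barcode.

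Cells with at least 200 genes and at most 10% mitochondrial UMIs were kept, and 1727 MC38 and 617 control doublet calls (Scrublet in scanpy 1.11.5, expected rate 0.008 per 1000 cells) were removed. A cell passed the gate with at least 5 UMIs and 100 UMIs per 10000 of core monocyte and macrophage genes and few UMIs of other types. Classes needed 2 genes of their list and, per 10000 UMIs, 20 of the Kupffer list with a Clec4f UMI, 20 of the nonclassical, 15 of the macrophage or 30 of the classical list, in that order. Clusters used 2000 variable genes without the 8, 30 components, 15 neighbours and Leiden resolution 1.0, giving 29 clusters, and are named by the leading gene. UMIs were summed per class and library. Fold intervals are exact conditional Poisson, levels exact Poisson and shares exact binomial, all at 95%, and a class at 0 UMIs is given a floor of 3 UMIs. Levels are not compared between genes. Python 3.11.15, numpy 2.4.6, scipy 1.17.1, pandas 2.3.3 and matplotlib 3.10.9 were used, and the fold and correlation steps were tested on simulated data.

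The genes, lists and class markers were chosen with earlier results of these data known, and the gate thresholds and the clusters left out were set after values were seen. Named genes were the 8, the 2 highest and 2 lowest of each list by the interval end nearest no difference, the 10 genes most correlated with the mean of the 8, Arg1, and markers of other cells, and others named from the called members of a list were chosen after their values were seen. Single values of some list members are not reported here.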

Additional observations from a re-analysis of the deposited data

Results flagged for a closer look

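Lpl had opposite directions between classes under the same comparison. Its log2 fold of MC38 over control was 0.92 in nonclassical monocyte-like cells, from 24 UMIs in MC38 and 52 in control, against -0.97 in macrophage-like, -1.91 in classical monocyte-like and -0.63 in Kupffer-like cells. At a mitochondrial limit of 30% the nonclassical fold was 0.17 (-0.51 to 0.80) and the Kupffer-like fold -0.07 (-0.25 to 0.11), neither called. With 1 library per group, the difference between classes was not tested. Most MC38 nonclassical cells lay in the C1qb-led cluster (20 of 38) and most control ones in the Ace-led cluster (102 of 135).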

How the results depend on the processing

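The number of the 8 genes counted as higher stayed at 4 to 6 over all gated cells and in classical monocyte-like cells under every alternative run. In Kupffer-like cells it was 6 with a mitochondrial limit of 30% (199 MC38 and 231 control cells), 6 with classes taken from clusters, 4 from means over cells, 1 after thinning to 1000 UMIs, and 0 in cells without hepatocyte marker UMIs (2 and 8 cells), against 2. In nonclassical monocyte-like cells it was 2 with classes from clusters, 3 after thinning and 2 at a fold of 2, against 5. In macrophage-like cells it was 2 after thinning and 3 with the macrophage threshold at 30 per 10000 (492 and 13 cells), against 5. The median correlation was 0.008 in the 12 macrophage-like cells without hepatocyte marker UMIs and 0.1 at most. Lpl changed sign in Kupffer-like cells without hepatocyte marker UMIs (1.55) and in macrophage-like cells at the threshold of 30 (0.06). The causes were not tested, beyond the fewer cells some of these settings leave. Of 496 single folds recomputed, 366 stayed within their main counting interval, 128 moved out of it, and 2 were called folds that changed sign, the Lpl folds above. Counting folds without a call, 20 changed sign. Of 384 folds with a call, 34 lost it, and 15 others gained one. Alternatives numbered 10 from the outset and 9 chosen after seeing the data. Nonclassical cells without hepatocyte UMIs and Kupffer-like cells without the Clec4f-led cluster gave no value. No paired analysis was possible because each group had 1 library, which also left no replicate to leave out.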

Other observations

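Cells outside the gate also held some of the 8 genes. Fabp5 reached 3941 CPM in 188 MC38 and 2698 CPM in 27 control mature-dendritic-cell-like cells. Cd9 reached 1457 CPM in 79 MC38 and 1206 CPM in 70 control basophil-like or mast-cell-like cells. In NK-cell-like or ILC1-like cells Spp1 held 86.9 CPM in 142 MC38 cells and 771 CPM in 247 control cells, where 989 of the 1004 control UMIs lay in 1 cell and 9 cells had any. Of the 70 MC38 UMIs 48 lay in 1 cell, and 10 cells had any.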
